A study of Rattus norvegicus with 6 samples.

Results

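Genes for antioxidant defence were measured in cerebral arteries of male rats taken 6 hours after subarachnoid haemorrhage (SAH), in which blood escapes into the space around the brain's arteries, and in those of sham-operated rats. The 10 genes are targets of the transcription factor NRF2 or classical antioxidant enzymes: Gclc, Gclm, Slc7a11, Gsr, Txnrd1, Srxn1, Prdx1, Nqo1, Sod2 and Cat. They were chosen by name from the 18166 genes that had a probe set naming that gene alone, and each of the 10 had exactly 1 such probe set. There were 3 SAH arrays, numbered 1, 4 and 5, and 3 sham arrays, numbered 6, 7 and 8. Strain, age, the way the bleed was made and the time after sham surgery are given by none of the sources used here.

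NRF2, encoded by Nfe2l2, is held in the cytosol by KEAP1 and degraded; oxidants and electrophiles disable KEAP1, and NRF2 then enters the nucleus and binds antioxidant response elements (AREs) with a small MAF partner, in competition with the haem-regulated repressor BACH1. Its targets make and recycle glutathione, run the thioredoxin system and detoxify quinones. Superoxide dismutase and catalase form a separate line that turns superoxide into hydrogen peroxide and then into water. After a bleed, haemoglobin and its haem around the artery are a known source of oxidants.

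All values are log2 expression values after RMA, and a difference is SAH minus sham in log2 units. A gene was called when the Benjamini-Hochberg adjusted p from limma, over all 36495 probe sets, was under 0.05. Arrays correlated with r between 0.970 and 0.991 across probe sets. On the next-to-leading principal component (18.0% of the variance) sham array 8 stood at 40.25 and SAH array 1 at the other end, at -29.22. The remaining arrays lay between -10.22 and 7.18. The smooth muscle markers measured, 7 of 9 listed, averaged 11.72 to 11.81 on SAH arrays and 12.02 to 12.18 on sham arrays, and the endothelial markers measured, 6 of 8, averaged 9.99 to 10.07 and 9.99 to 10.40. All 13 of these lay above the median probe set mean of 7.33. Neutrophil markers, 12 of 13 measured, averaged 8.63, 8.76 and 9.65 on SAH arrays 1, 4 and 5, and 7.21, 7.37 and 9.19 on sham arrays 6, 7 and 8, with Ngp the lowest of them (mean 6.23) and Lcn2 the highest (12.31). Sham array 8 was thus close to the SAH arrays in the mean of these markers. Of the 12, 7 lay above the median probe set mean, and 10 differences were above 0 and 2 below. In bulk tissue, fewer cells of a type and less RNA per cell cannot be told apart.

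The ARE sequence itself gives a first view of the 10 genes. The core TGACNNNGC was searched on both strands in 300 bases around a start of the gene, 250 before it and 50 after it, in RefSeq sequence of the GRCr8 build, where 9 of the 10 genes had an entry (Gsr had none). For 6 of the 9, Sod2, Gclm and Prdx1 among them, this start was the outermost annotated end of the gene; for Gclc, Slc7a11 and Txnrd1 it lay 225, 296 and 37702 bases inside the gene. It was found once each for Sod2, Gclm and Prdx1, that is in 3 of 9, and in 12.2% of all 27457 such windows. All 3 matches lay on the opposite strand, beginning 35 bases before the Sod2 start, 172 before that of Gclm and 135 before that of Prdx1. The 250 bases before these starts are shown, since they place the match in each gene, from chr1:50050169-50050418 on the minus strand, chr2:213031885-213032134 on the plus strand and chr5:135383656-135383905 on the plus strand, 5′ to 3′ along each gene, with the core, read here as its reverse complement, in capitals.
Sod2: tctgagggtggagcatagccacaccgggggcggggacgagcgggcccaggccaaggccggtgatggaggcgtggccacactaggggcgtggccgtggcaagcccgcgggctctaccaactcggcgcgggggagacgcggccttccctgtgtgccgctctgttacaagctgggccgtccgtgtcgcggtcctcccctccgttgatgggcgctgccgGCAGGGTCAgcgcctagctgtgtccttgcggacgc
Gclm: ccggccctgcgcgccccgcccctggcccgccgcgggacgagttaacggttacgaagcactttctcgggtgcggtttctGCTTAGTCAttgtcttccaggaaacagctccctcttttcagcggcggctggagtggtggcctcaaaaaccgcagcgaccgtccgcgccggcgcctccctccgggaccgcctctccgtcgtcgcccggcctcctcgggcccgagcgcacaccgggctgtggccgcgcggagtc
Prdx1: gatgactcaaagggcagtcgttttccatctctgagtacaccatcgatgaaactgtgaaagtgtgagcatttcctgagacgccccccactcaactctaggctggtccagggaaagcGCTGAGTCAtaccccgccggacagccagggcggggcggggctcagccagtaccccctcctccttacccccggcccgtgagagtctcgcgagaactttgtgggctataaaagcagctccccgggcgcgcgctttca
The other 6 windows hold no match to these letters, which says nothing of elements elsewhere, and for Gclc, Slc7a11 and Txnrd1 the outermost start was not what the 250 bases precede. The composite element bound by ATF4, searched as TGATGNAA, and the kappaB motif were found in none of the 9 windows, and in 3.82% and 7.60% of all windows. As the values below show, the 3 genes with a core match differed from sham by amounts from -0.08 to 0.60.

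By limma none of the 10 genes passed the threshold, which 1.29% of all genes did (235 of 18166). Of the 10, 4 genes (Sod2, Gsr, Slc7a11 and Cat) had an unadjusted limma p under 0.05, where 18.6% of all genes did. The genes did not move as a block: 4 differences were above 0 and 6 below, from -0.75 for Slc7a11 to 0.60 for Sod2, with a median of -0.05 beside -0.01 over all genes. The size of the difference, whatever its sign, had a median of 0.25 for the 10 genes and 0.14 for all genes. The SAH and sham arrays did not overlap for 4 genes, with Sod2 and Gclm above on all SAH arrays and Gsr and Slc7a11 below. Over all genes 26.8% did not overlap, 11.4% with all SAH arrays above and 15.4% with all below.

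**Figure D1:**
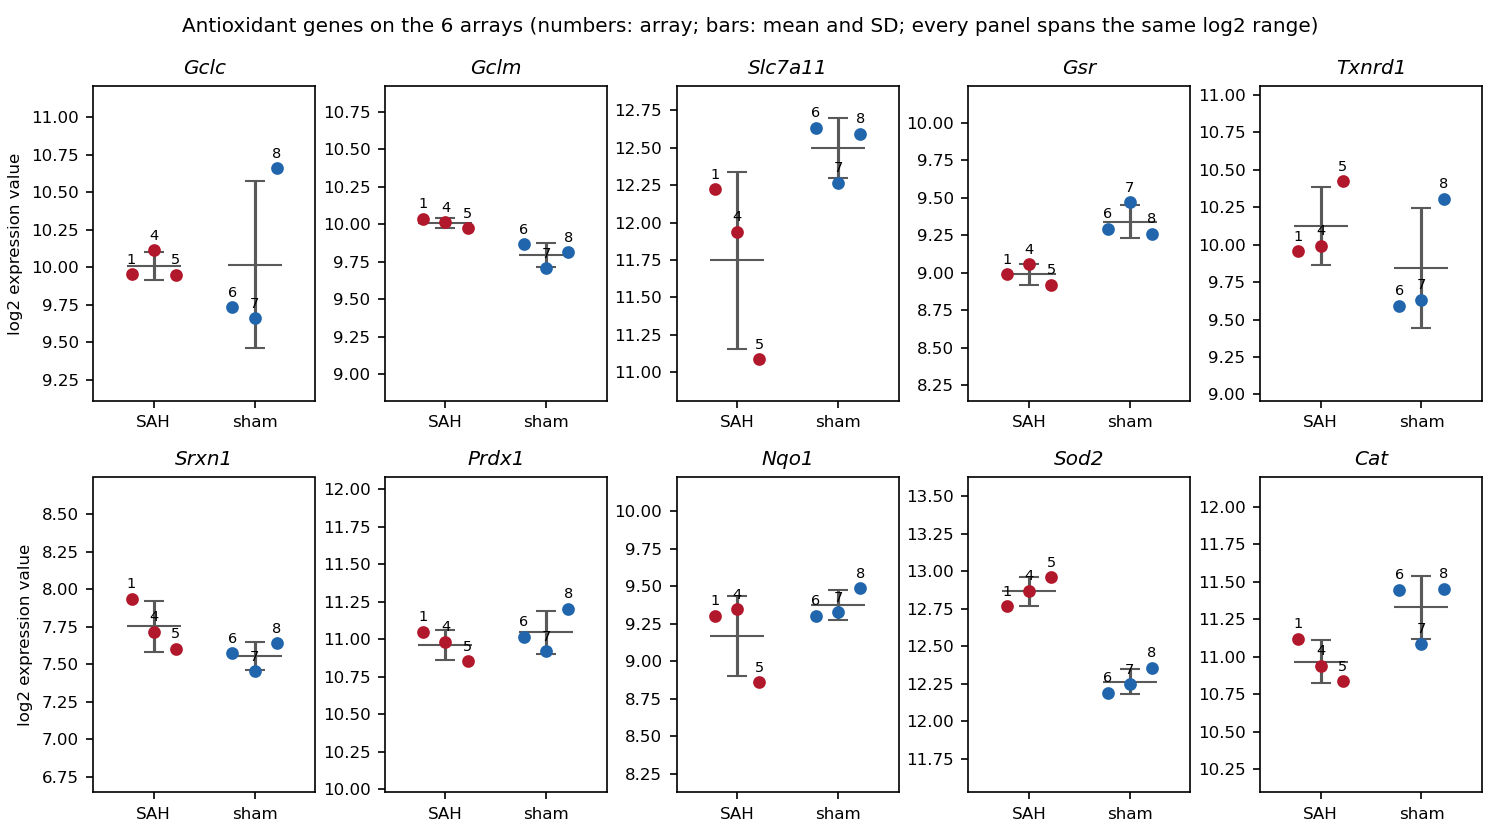
Log2 expression values (vertical axis) of the 10 genes on the 3 SAH arrays (red) and 3 sham arrays (blue), with array numbers, group means and SD; all panels span the same log2 range, so distances can be compared but levels cannot. Sod2 separates most clearly (SAH 12.77 to 12.96, sham 12.19 to 12.36), while Gclc and Txnrd1 show sham array 8 far above sham arrays 6 and 7, and Slc7a11 shows SAH array 5 far below the others.

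Sod2 had the smallest p of the 10. It encodes the manganese superoxide dismutase of the mitochondrial matrix, and is known as a target of NF-kappaB and of inflammatory cytokines more than of NRF2. It read 12.77, 12.87 and 12.96 on SAH arrays 1, 4 and 5, and 12.19, 12.25 and 12.36 on sham arrays 6, 7 and 8. The groups were 0.41 apart at their nearest arrays, more than the range within either group (0.193 for SAH, 0.168 for sham). The difference was 0.60 ± 0.10 (SE; 95% interval 0.36 to 0.84), a 1.52-fold higher level in SAH arteries, with a limma p of 0.000633 and an adjusted p of 0.0630, so the gene ranked 289 by p among 18166 and missed the threshold. Its difference lay between 0.55 and 0.65 with any 1 array left out, and the adjusted p was 0.0451 without SAH array 1 and 0.129 to 0.271 without each of the other arrays. With the mean of the neutrophil markers in the fit as a covariate, the difference was 0.50 ± 0.12 (adjusted p = 0.284).

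The other dismutases gave other values. Sod1, the cytosolic copper-zinc enzyme, read 10.77, 10.72 and 10.10 on the SAH arrays and 11.16, 10.92 and 10.81 on the sham arrays, a difference of -0.44 ± 0.20 (SE; adjusted p = 0.388). Sod3, the extracellular enzyme held in the vessel wall matrix, differed by 0.04 ± 0.11 (adjusted p = 0.907). By root mean square difference of profiles centred on their own means over the 6 arrays, the genes nearest to Sod2 were Tut4 (0.0405), Rab7b (0.0456), Cnot9 (0.0482), Il10 (0.0547) and Psmb2 (0.0585). Their differences lay between 0.58 for Cnot9 and 0.67 for Rab7b, near that of Sod2 because they were chosen by profile.

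Cat encodes catalase, the haem enzyme of peroxisomes that breaks down hydrogen peroxide. It read 11.12, 10.94 and 10.84 on SAH arrays 1, 4 and 5, and 11.45, 11.09 and 11.45 on sham arrays 6, 7 and 8. Sham array 7 lay just under SAH array 1, so the groups overlapped. The difference was -0.36 ± 0.14 (SE; 95% interval -0.69 to -0.03; adjusted p = 0.302 by limma), or 1.29-fold lower in SAH arteries. Of 10 peroxisomal genes measured none passed and 1 had an unadjusted p under 0.05 (18.6% of all genes). It was Abcd3, a fatty acid transporter of the peroxisome membrane, at -0.54 ± 0.14 (adjusted p = 0.157). The list had a median of -0.02. The peroxisomal oxidation enzyme Hsd17b4 differed by -0.36 ± 0.16, Pxmp2 by -0.33 ± 0.18 and Pxmp4 by -0.25 ± 0.14, while the import protein gene Pex13 differed by 0.21 ± 0.13.

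Glutathione begins with cystine uptake. Slc7a11 encodes xCT, the light chain of the cystine-glutamate exchanger, which NRF2 and ATF4 are both known to induce and which in mouse is known from the meninges. It had the largest difference of the 10 and the widest spread among SAH arrays: 12.22, 11.94 and 11.09 on SAH arrays 1, 4 and 5, and 12.63, 12.27 and 12.59 on sham arrays 6, 7 and 8. All SAH arrays were below all sham arrays, but by only 0.05 at the nearest arrays, and SAH array 5 lay 0.99 below the mean of the other SAH arrays. The difference was -0.75 ± 0.29 (SE; 95% interval -1.43 to -0.07; adjusted p = 0.298 by limma), or 1.68-fold lower in SAH arteries. Without SAH array 5 it was -0.42 ± 0.16 (adjusted p = 0.455). Markers of fibroblasts and leptomeningeal cells, 7 of 7 measured, averaged 12.12, 12.03 and 11.67 on SAH arrays 1, 4 and 5, and 12.25, 12.29 and 12.21 on sham arrays 6, 7 and 8, with SAH array 5 again the lowest. Within the list Slc6a13 read 11.99, 11.51 and 10.06 and Pdgfra 12.04, 11.95 and 11.39 on SAH arrays 1, 4 and 5, while Lum and Dcn were higher on SAH array 5 (10.85 and 13.06) than on SAH array 4 (10.71 and 13.01). The part of these cells in the Slc7a11 value was not tested.

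Slc3a2, the heavy chain that carries xCT to the membrane, differed by 0.05 ± 0.11 (SE; 95% interval -0.20 to 0.31). In the list of cystine and glutathione handling none of 7 measured genes passed by limma. An unadjusted p under 0.05 was found for 2 (18.6% of all genes), and the median difference was 0.05. Oplah, which returns 5-oxoproline to glutamate in the glutathione cycle, read 8.35, 8.09 and 7.75 on the SAH arrays and 9.31, 8.93 and 9.07 on the sham arrays, with a difference of -1.04 ± 0.18 (adjusted p = 0.0641). Chac1, which degrades glutathione and is an ATF4 target, read 9.16, 9.64 and 9.28 on the SAH arrays and 8.73, 8.34 and 8.79 on the sham arrays, with a difference of 0.74 ± 0.18 (adjusted p = 0.134). For both genes the groups did not overlap. Cbs and Cth, of the route from homocysteine to cysteine, differed by -0.32 ± 0.15 and -0.15 ± 0.14, and Chac2 by 0.15 ± 0.10.

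Glutamate-cysteine ligase, the rate-limiting step of glutathione synthesis, has a modifier and a catalytic subunit. The modifier gene Gclm read 10.04, 10.01 and 9.97 on SAH arrays 1, 4 and 5, and 9.87, 9.71 and 9.81 on sham arrays 6, 7 and 8. The SAH arrays were all above the sham arrays, by 0.11 at the nearest, and differed by only 0.0644 among themselves. The difference was 0.21 ± 0.09 (SE; 95% interval -0.01 to 0.44; adjusted p = 0.365 by limma), 1.16-fold, and it stayed between 0.17 and 0.25 with any 1 array left out.

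The catalytic subunit gene Gclc had the largest p of the 10 over all 6 arrays. It read 9.96, 10.11 and 9.95 on SAH arrays 1, 4 and 5, and 9.73, 9.66 and 10.66 on sham arrays 6, 7 and 8. Sham array 8 was the highest of all 6, 0.96 above the mean of the other sham arrays, while sham arrays 6 and 7 were below every SAH array. The difference was -0.01 ± 0.26 (SE; 95% interval -0.63 to 0.61; adjusted p = 0.992) with all arrays and 0.31 ± 0.12 (adjusted p = 0.351) without sham array 8. With the neutrophil covariate it was -0.43 ± 0.21 (adjusted p = 0.612). The nearest profiles over the 6 arrays were those of Slc25a25, at a root mean square difference of 0.0888, Abca1 (0.0907), Parp16 (0.103), Nap1l5 (0.105) and Pde10a (0.108). All were highest on sham array 8, which the choice by profile favours.

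Gsr encodes glutathione reductase, which regenerates reduced glutathione with NADPH. It read 8.99, 9.06 and 8.92 on SAH arrays 1, 4 and 5, and 9.29, 9.47 and 9.26 on sham arrays 6, 7 and 8. All SAH arrays were below all sham arrays, by 0.20 at the nearest arrays against ranges of 0.138 within SAH and 0.210 within sham. The difference was -0.35 ± 0.10 (SE; 95% interval -0.60 to -0.11; adjusted p = 0.196 by limma), 1.28-fold lower in SAH arteries, and lay between -0.39 and -0.29 with any 1 array left out. Gsr and Gclm, on the recycling and the synthesis side of glutathione, thus differed from sham in opposite directions, neither past the threshold.

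**Figure D2:**
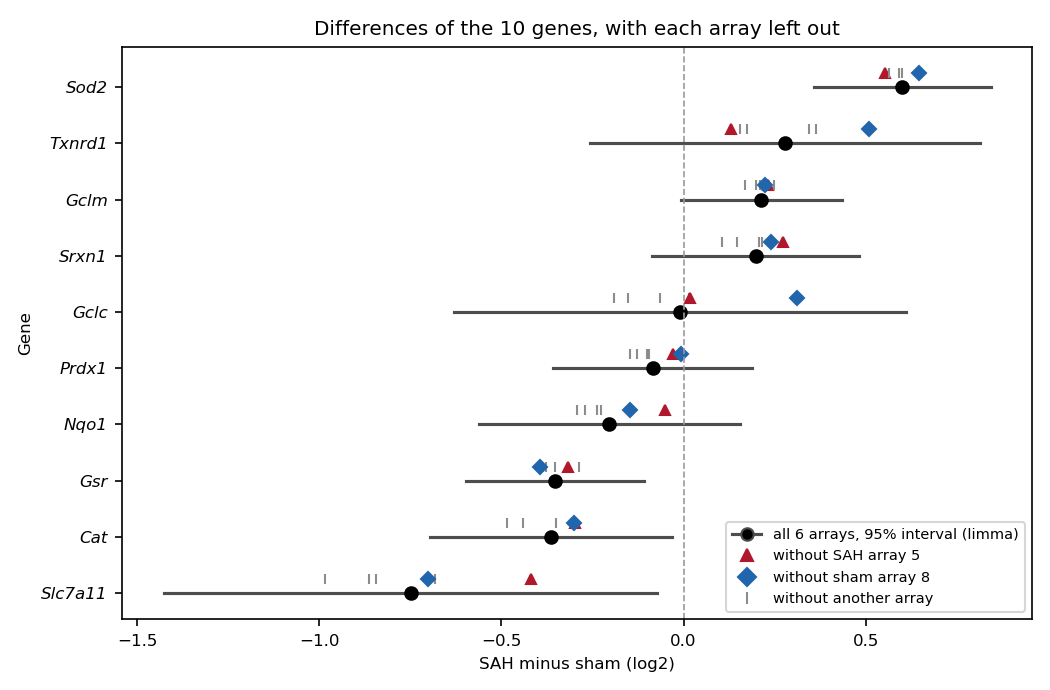
SAH minus sham differences in log2 units (horizontal axis) of the 10 genes with limma's 95% interval over 6 arrays, and the difference with each array left out. Sod2, Gclm and Gsr hold their place (Sod2 0.55 to 0.65), Gclc lies at -0.01 with all arrays and 0.31 without sham array 8, and Slc7a11 at -0.75 with all arrays and -0.42 without SAH array 5.

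In the thioredoxin system, Txnrd1 encodes the cytosolic selenoprotein that reduces thioredoxin. It read 9.95, 9.99 and 10.42 on SAH arrays 1, 4 and 5, and 9.59, 9.63 and 10.31 on sham arrays 6, 7 and 8. The groups overlapped through sham array 8, which lay 0.69 above the mean of the other sham arrays. The difference was 0.28 ± 0.23 (SE; 95% interval -0.26 to 0.81; adjusted p = 0.644 by limma), and 0.51 ± 0.17 (adjusted p = 0.314) without sham array 8, but 0.13 ± 0.23 without SAH array 5. Across the 6 arrays Txnrd1 had the same order as the neutrophil marker mean, lowest on sham array 6 and highest on SAH array 5. With that mean as a covariate its difference was -0.14 ± 0.12 (adjusted p = 0.806).

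Srxn1, sulfiredoxin, repairs overoxidised peroxiredoxins. It read 7.94, 7.72 and 7.60 on SAH arrays 1, 4 and 5, and 7.57, 7.45 and 7.64 on sham arrays 6, 7 and 8. SAH array 5 lay between the sham values, and the difference was 0.20 ± 0.12 (SE; 95% interval -0.09 to 0.48; adjusted p = 0.524 by limma). It was 0.11 ± 0.11 without SAH array 1, the highest of the 6. Prdx1, the cytosolic peroxiredoxin that Srxn1 can repair, read 11.05, 10.98 and 10.85 on the SAH arrays and 11.02, 10.92 and 11.21 on the sham arrays. Its groups overlapped, with SAH array 5 the lowest of all and sham array 8 the highest, and the difference of -0.08 ± 0.11 had a 95% interval of -0.36 to 0.19.

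Nqo1, the quinone reductase often used as a readout of NRF2, read 9.30, 9.35 and 8.86 on SAH arrays 1, 4 and 5, and 9.30, 9.33 and 9.49 on sham arrays 6, 7 and 8. SAH array 4 lay among the sham arrays, SAH array 1 lay just under the lowest of them, and SAH array 5 lay 0.46 below the mean of the other SAH arrays. The difference was -0.20 ± 0.15 (SE; 95% interval -0.56 to 0.16; adjusted p = 0.610 by limma), and -0.05 ± 0.11 without SAH array 5.

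Individual arrays stood out over the set. SAH array 5 was the lowest SAH array for 8 of the 10 genes (31.4% of all genes), the exceptions being Sod2 and Txnrd1, which were highest there. Sham array 8 was the highest sham array for 7 of the 10 (30.8% of all genes). The median of the 10 genes stood at -0.03, 0.03 and -0.13 from the sham mean on SAH arrays 1, 4 and 5, and at -0.04, -0.11 and 0.11 on sham arrays 6, 7 and 8, so the groups overlapped. Without sham array 8 the median difference of the 10 genes was 0.11, and without each of the other arrays it lay between -0.17 and -0.01.

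**Figure D3:**
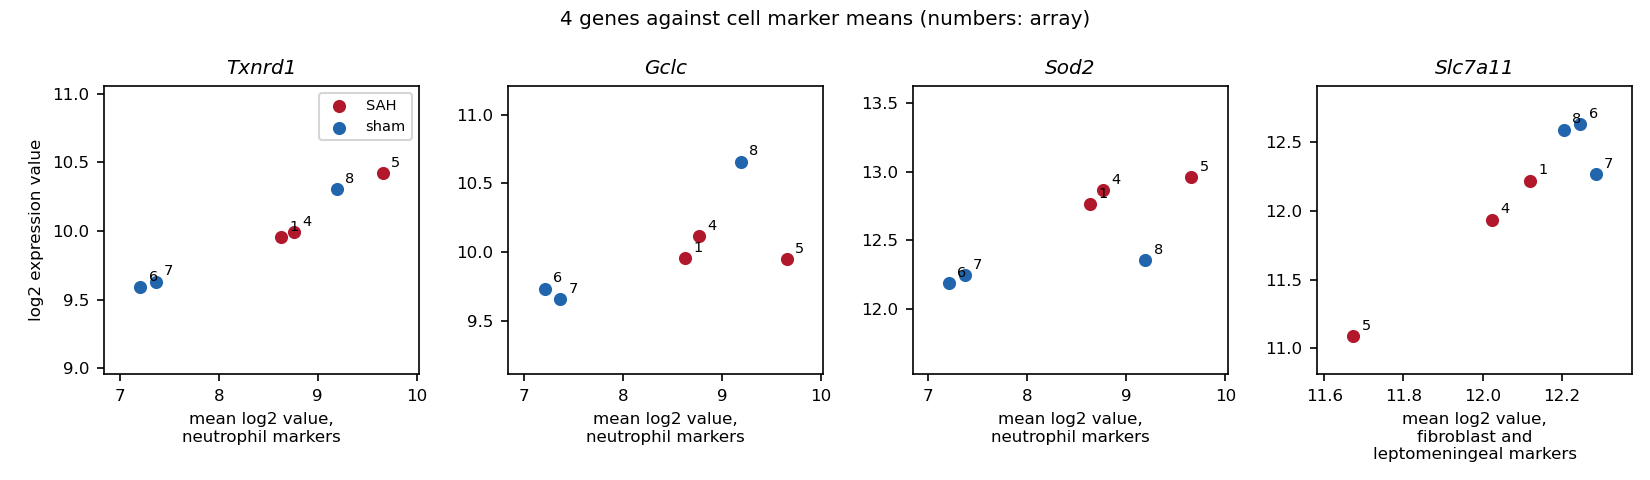
Log2 values of Txnrd1, Gclc, Sod2 and Slc7a11 (vertical axes, equal spans) against the mean log2 value of neutrophil markers or, for Slc7a11, of fibroblast and leptomeningeal markers (horizontal axes) on SAH (red) and sham (blue) arrays. Sham array 8, at 9.19 in neutrophil markers, lies with the SAH arrays for Txnrd1 and below them for Sod2, and SAH array 5 is the lowest in both Slc7a11 and its marker mean.

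The regulators of the pathway gave no call either: none of 12 measured passed by limma, and none had an unadjusted p under 0.05 (18.6% of all genes). Nfe2l2, encoding NRF2, read 12.07, 11.89 and 12.14 on SAH arrays and 12.11, 12.07 and 12.22 on sham arrays (difference -0.10 ± 0.11, SE), and Keap1 differed by 0.18 ± 0.17. Since NRF2 is regulated mainly through its protein, its transcript does not measure its activity. Bach1, the repressor of ARE genes, read 9.73, 10.22 and 10.50 on SAH arrays 1, 4 and 5, and 9.41, 9.65 and 9.96 on sham arrays 6, 7 and 8, with overlapping groups (0.47 ± 0.22, adjusted p = 0.402). Cul3, Rbx1 and Btrc, parts of ubiquitin ligases that mark NRF2 for degradation, were below sham on all SAH arrays, with differences of -0.19 ± 0.09, -0.26 ± 0.12 and -0.27 ± 0.12 and adjusted p of 0.398, 0.381 and 0.359. Sqstm1, encoding p62, which traps KEAP1, was also below on all SAH arrays, at -0.30 ± 0.17, and 5 of these 12 genes in all were below on every SAH array (15.4% of all genes).

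Among other known NRF2 targets 1 gene rose and 1 fell of 28 measured, against 0.963% higher and 0.330% lower over all genes. Gpx2, a glutathione peroxidase best known from the gut, read 8.15, 8.03 and 7.72 on SAH arrays 1, 4 and 5, and 6.81, 6.97 and 6.82 on sham arrays 6, 7 and 8. It rose 2.14-fold (95% interval of the log2 difference 0.78 to 1.42; adjusted p = 0.0242 by limma), and its sham values lay under the median probe set mean, where RMA compresses differences. Me1, the malic enzyme that supplies NADPH, read 9.69, 9.72 and 9.65 on the SAH arrays and 10.33, 10.26 and 10.27 on the sham arrays, and was 1.51-fold lower (-0.60 ± 0.09, adjusted p = 0.0416). Both calls ended without SAH array 4, sham array 6, sham array 7 or sham array 8 and with the neutrophil covariate, and that of Me1 also without SAH array 5, with adjusted p of 0.0873 to 0.148 for Gpx2 and 0.125 to 0.222 for Me1. The log2 differences in those settings kept their size, at 1.07 to 1.21 for Gpx2 and -0.61 to -0.58 for Me1.

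The rest of the list did not pass, although 23 of the 28 differences were below 0 and the list's median was -0.33, beside -0.01 over all genes. Of the 28, 11 had an unadjusted p under 0.05 (18.6% of all genes), 4 of them higher and 7 lower. The drug and nucleotide exporter gene Abcc4 differed by -0.59 ± 0.11 (adjusted p = 0.0733), the haem transporter gene Slc48a1 by -0.75 ± 0.14 (0.0840) and the glutathione transferase gene Gstp1 by -0.41 ± 0.11 (0.152), each below sham on all SAH arrays. Hmox1, the haem-degrading enzyme that haem induces through BACH1 and NRF2, read 9.70, 9.36 and 8.89 on SAH arrays 1, 4 and 5, and 9.53, 9.43 and 10.52 on sham arrays 6, 7 and 8. Like Gclc it was highest on sham array 8. The difference was -0.51 ± 0.33 (95% interval -1.29 to 0.27; adjusted p = 0.553).

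**Figure D4:**
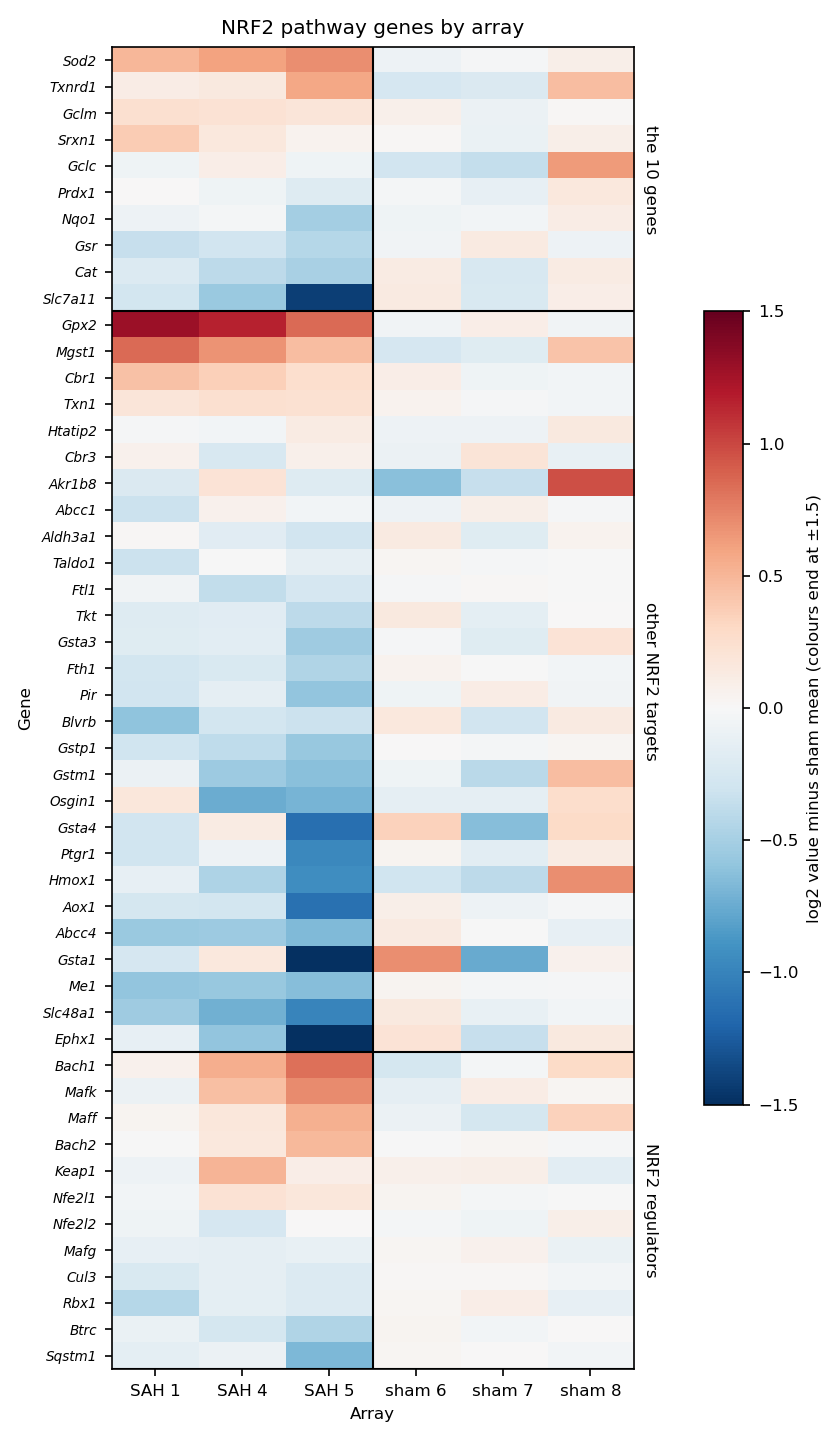
Log2 value minus the sham mean (colour) of the 10 genes, 28 other NRF2 targets and 12 regulators (rows) on the 3 SAH and 3 sham arrays (columns). Higher and lower genes stand side by side among the targets: Gpx2 is high on all SAH arrays and Me1 low on all, and Gclc and Hmox1 stand out on sham array 8.

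Of 32 other antioxidant enzymes measured none passed by limma, and 8 had an unadjusted p under 0.05 (18.6% of all genes), 2 higher and 6 lower. Their median was -0.12. Glrx, glutaredoxin, which removes glutathione from proteins, had the largest difference: it read 10.55, 10.94 and 10.89 on SAH arrays 1, 4 and 5, and 9.15 and 10.14 on sham arrays 7 and 8, with sham array 6 the lowest (1.36 ± 0.30, adjusted p = 0.115). The groups did not overlap, and without sham array 8 the gene passed (1.72 ± 0.16, adjusted p = 0.0283). It did not pass without any other single array (adjusted p of 0.0989 to 0.339). With the neutrophil covariate its difference was 0.83 (adjusted p = 0.274). Sesn1, a stress-inducible sestrin, differed by -0.96 ± 0.20 (adjusted p = 0.101) and its relative Sesn3 by -0.43 ± 0.15. The mitochondrial peroxiredoxin Prdx3 and the peroxiredoxin Prdx6 both differed by -0.34, with SE of 0.11 and 0.12. Gpx1 and Gpx4, the cytosolic and the phospholipid glutathione peroxidase, differed by -0.27 ± 0.10 and -0.18 ± 0.11, below sham on all SAH arrays, with adjusted p of 0.299 and 0.506.

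Slc7a11 belongs to the ATF4 programme as well, and Sod2 to that of NF-kappaB. Of 15 ATF4 genes measured 4 rose and none fell, against 0.963% and 0.330% of all genes: Psat1 and Shmt2, of serine and one-carbon synthesis, by 1.32 ± 0.18 (SE) and 0.70 ± 0.10, Ddit3, the transcription factor CHOP, by 0.68 ± 0.09, and Asns, asparagine synthetase, by 0.66 ± 0.10 (limma adjusted p = 0.0342, 0.0359, 0.0342 and 0.0478). Each of these calls ended when SAH array 4 or any single sham array was left out and with the neutrophil covariate (adjusted p between 0.0823 and 0.221), while the differences in those settings were 1.14 or more for Psat1, 0.66 to 0.74 for Shmt2, 0.66 to 0.70 for Ddit3 and 0.61 to 0.75 for Asns. Without SAH array 5 Psat1 still passed (0.0245) and the others did not (0.117 to 0.125), and Asns also missed the threshold without SAH array 1 (0.0542), with quantile normalization repeated (0.0504) and with array medians subtracted (0.0535). The median over the list was 0.39, and 9 of 15 were above sham on all SAH arrays (11.4% of all genes), whereas Slc7a11 was below sham on all of them. None of 11 NF-kappaB subunits and targets measured passed and 1 had an unadjusted p under 0.05 (18.6% of all genes). It was Cflar, an inhibitor of death receptor signalling, at 1.09 ± 0.25 (adjusted p = 0.121). Birc3, Vcam1 and Nfkb2 differed by 0.94 ± 0.46, 0.44 ± 0.24 and 0.35 ± 0.22, and Icam1 by -0.16 ± 0.15, each with overlapping groups.

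**Figure D5:**
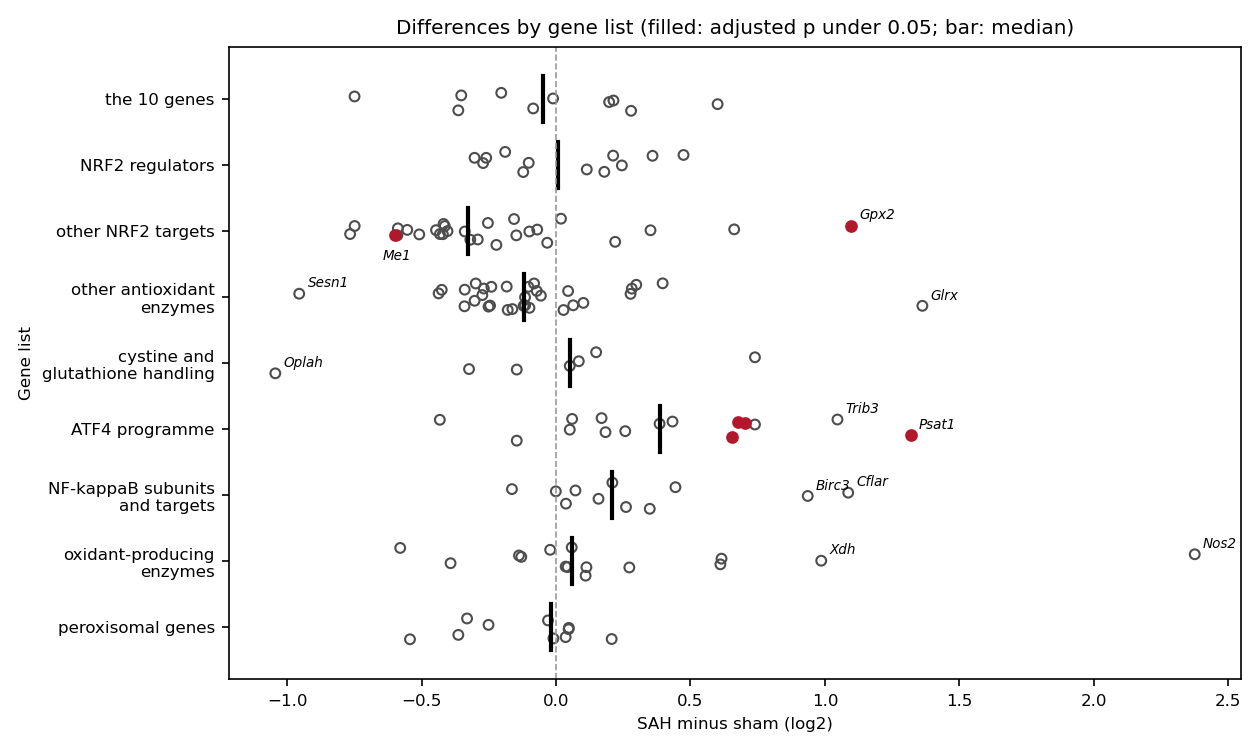
SAH minus sham differences (log2, horizontal axis) of the 10 genes and of 8 related gene lists (rows), with a point per gene, filled for an adjusted p under 0.05, and the list's median as a bar. The medians lie at -0.05 for the 10 genes, -0.33 for other NRF2 targets and 0.39 for the ATF4 programme.

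Of 15 oxidant-producing enzymes measured none passed by limma and 5 had an unadjusted p under 0.05 (18.6% of all genes). Cybb, the catalytic subunit of the phagocyte NADPH oxidase, read 11.05, 11.45 and 11.15 on SAH arrays 1, 4 and 5, and 10.65, 10.43 and 10.73 on sham arrays 6, 7 and 8 (0.61 ± 0.14, SE; adjusted p = 0.129). Its regulator Rac2 differed by 0.62 ± 0.18 and Xdh, xanthine oxidoreductase, by 0.99 ± 0.25, both above sham on all SAH arrays, with adjusted p of 0.189 and 0.153. Nos2, inducible nitric oxide synthase, differed by 2.38 ± 0.86 (adjusted p = 0.276), and its sham array 8, at 10.66, lay far above sham arrays 6 and 7, at 7.61 and 7.94. Nos3, the endothelial synthase, differed by -0.39 ± 0.11, and Nox4, the oxidase of vascular cells, by 0.06 ± 0.09 with all 6 values between 5.87 and 6.02. The Nox4 values lay under the median probe set mean of 7.33, with background probe sets averaging 5.11 to 5.47 per array. A difference in this transcript could thus be missed.

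Over the 8 related lists, 6 of 127 measured genes passed, where 1.29% of all genes did, and this count depended on single arrays. Leaving out SAH array 1 gave 8 calls, leaving out SAH array 5 gave 2 (Gpx2 and Psat1) and leaving out sham array 8 gave 1 (Glrx). The count was 0 when SAH array 4, sham array 6 or sham array 7 was left out, and 0 with the neutrophil covariate. Calls over all genes, 235 in the main fit, moved as well. There were 670 without SAH array 1, 59 without SAH array 5 and 95 without sham array 8. They numbered 41, 29 and 55 without SAH array 4, sham array 6 and sham array 7, and 23 with the covariate.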

How the data were processed

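RNA of cerebral arteries of male rats, 3 SAH and 3 sham samples, was hybridised to 6 Affymetrix arrays, with 6 µg of total RNA per labelling, per the labels' protocols. The deposited log2 values were made by the authors with Affymetrix Expression Console 1.1.2 and RMA, per the submitters' processing notes; the sources used here give no settings or genome build. They were used without further normalization. RMA understates differences of dim and of very bright genes, and quantile steps hide a general change in RNA content. Of 36685 rows, 190 controls were set aside. GEO's platform annotation gave 1 gene for 18511 of the 36495 probe sets tested, several for 575 and none for 17409; a gene was represented by its probe set with the highest mean.

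The test was that of limma 3.58.1, run in R 4.3.3 (lmFit, eBayes, two-sided, no covariate), adjusted over all 36495 probe sets, with code tested on simulated data. Values carry limma's SE or 95% interval, with n = 3 arrays each, which limits the precision. The labels do not say that samples are separate animals, so the p-values rest on a spread that may be partly technical. The 10 genes, the 8 related lists and the marker lists were chosen with earlier results of these data known. Named were all 10 genes, up to 5 genes per related list with the smallest p, a small panel (Nfe2l2, Keap1, Bach1, Hmox1, Sod1, Sod3, Gpx1, Gpx4, Cybb, Nox4), and the 5 nearest profiles to the genes with the smallest and the largest p. Slc3a2 and the markers Ngp, Lcn2, Slc6a13, Pdgfra, Lum and Dcn fall outside this rule and were named after their values were seen. Marker lists held neutrophil, macrophage, red cell, smooth muscle, endothelial, fibroblast and brain cell genes. Alternatives concerned normalization, dim probe sets, variance model, array weights, threshold, probe set choice, a neutrophil covariate and single arrays left out.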

Additional observations from a re-analysis of the deposited data

How the results depend on the processing

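No paired analysis was run because the labels state no pairing of SAH and sham samples. Of 150 alternative values for the 10 genes, 140 kept direction and side of the threshold, 5 passed it and 5 changed sign. Many of the 150 could not change direction. Each gene had 1 probe set, so the choice of probe set left the difference as it was. So did the threshold, the variance model and the removal of dim probe sets. The 5 that passed were all Sod2, the only member called in any alternative: with dim probe sets removed (adjusted p = 0.0225), a trended robust eBayes (0.0246), weighted arrays (0.0412), the threshold of 0.10 (0.0630) and without SAH array 1 (0.0451), so the count of the 10 genes called was 1 in each of these and 0 elsewhere (0 to 1 with an array left out). Gclc changed sign with array weights (0.10), and with arrays left out its difference ranged from -0.19 to 0.31, above 0 without SAH array 1 (0.01), SAH array 5 (0.02) or sham array 8 (0.31). Txnrd1 changed sign with the neutrophil covariate (-0.14). The median of the 10 genes ranged from -0.17 without sham array 7 to 0.11 without sham array 8. The count over the related lists, 6, was 11 with dim probe sets removed, 10 at the threshold of 0.10, 0 with the neutrophil covariate and 0 to 8 with an array left out. Over all genes 235 were called, against 658 with dim probe sets removed, 363 with trend and robust options, 373 with array weights, 530 at 0.10, 23 with the covariate and 29 to 670 with an array left out. The causes of these changes were not tested.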

Other observations

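Markers of macrophages, which carry haem-handling and antioxidant genes, averaged 9.37, 9.50 and 9.17 on SAH arrays 1, 4 and 5, and 9.70, 9.39 and 9.90 on sham arrays 6, 7 and 8. None of 10 was called by limma, and 5 had an unadjusted p under 0.05 (18.6% of all genes), all lower. The list was mixed, with 6 differences below 0 and 4 above, from -1.29 to 0.56. Mgst1, the microsomal glutathione transferase, read 9.84, 9.66 and 9.45 on SAH arrays 1, 4 and 5, and 8.73, 8.81 and 9.42 on sham arrays 6, 7 and 8 (0.66 ± 0.20, SE; adjusted p = 0.214 by limma). Akr1b8, an aldo-keto reductase, read 8.83 on sham array 8 and between 7.23 and 8.06 on the other 5 arrays. Both were chosen after their values were seen. Red cell markers, 3 of 7 measured, averaged 7.56 to 8.16 on SAH arrays and 7.50 to 7.66 on sham arrays.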
